A study of Mus musculus with 4 samples.

Results

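The far chromosome 7 loci are the places on the array that lie on the same chromosome as the bait, the imprinting control region (ICR) of H19, but outside the large tiled region around it. They were chosen by position alone. A member is a tiling probe on chromosome 7 (mm6 build) placed below 136488552 or above 138655803, either with no region label or in a labelled region of at most 100 kb. Joining probes across gaps of up to 10 kb gave 118 loci with 4802 probes, of 2411 regions with 388160 probes on the array. Of these loci, 106 held unlabelled probes alone, 10 held probes of small tiled regions of about 40 kb alone, and 2 held both. The unlabelled loci were small: 44 of them held 1 probe, 17 held 2, and the largest held 15. In all, 365 probes were unlabelled and 4437 came from 10 small regions. By distance from the reference position near 137 Mb, 103 loci lay toward the centromere and 15 toward the telomere, from 0.545 to 117 Mb away. That position stands in for the bait, whose exact place no source used here gives. No sequence is shown, since the files carry no probe sequences and no mm6 genome was used here, and the loci are given by position with no gene annotation.

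Circular chromosome conformation capture (4C) ligates pieces of DNA that lay near each other in the nucleus into circles, and amplifies outward from one bait to recover its partners. In such assays contacts on the bait's own chromosome (in cis) are usually more frequent than those on other chromosomes (in trans), and contact frequency in cis generally falls with distance. The H19 ICR is methylated on the paternal copy and binds the insulator protein CTCF on the maternal copy, which sets the imprinted expression of H19 and Igf2. A 4C signal from this bait does not tell its parental copies apart.

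ES samples were cells of R1, a mouse embryonic stem cell line, and EB samples were embryoid bodies, aggregates of differentiating ES cells, after 12 days of differentiation. Each group had 2 arrays, and each array carried a pool of 3 independent samples per the series' design text. Red dye (Cy5) marked the amplified 4C product and green dye (Cy3) the genomic DNA of the same cells cut with MboI, with the same dye orientation on all 4 arrays. The locations on the array came from an earlier genome-wide 4C screen that pooled ES cells, embryoid bodies and newborn brain and liver, so the array holds places preselected for contact with the bait.

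The 4C signal is the log2 Cy5 intensity minus the median of all tiling probes on the same array, so 0 is the array's typical probe and 1 is a 2-fold signal. The median Cy5 intensity (replicates 1 and 2) was 969 and 1521 for ES, then 543 and 1638 for EB, and the random control probes had medians of 963, 1481, 534 and 1607. Intensities end at the scanner's maximum, which was 6.08 and 5.43 log2 units over the median for ES and 6.92 and 5.32 for EB, so strong signals are compressed. Both replicate 1 arrays were read with another version of the NimbleScan software than both replicate 2 arrays. The replicate number is therefore treated as a possible batch, and differences within it are given. Whether the arrays differed in other steps by replicate number is not recorded in the file headers used here.

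Far chromosome 7 loci carried 4C signal mostly in ES. A locus was counted as having signal on an array if its mean was at least 1 log2 unit, or if it held a run of at least 3 adjacent probes that each reached that level with gaps of at most 300 bp. Signal was present on both ES arrays and neither EB array at 23 of the 118 loci, or 19.5%, against 3.69% of the 2385 loci on the whole array. A further 9 loci had signal on ES replicate 2 alone. Signal on both EB arrays and neither ES array was found at 3 loci, against 2.05% of all loci. The other 83 loci had none, and no locus had signal in both cell states.

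**Figure D1:**
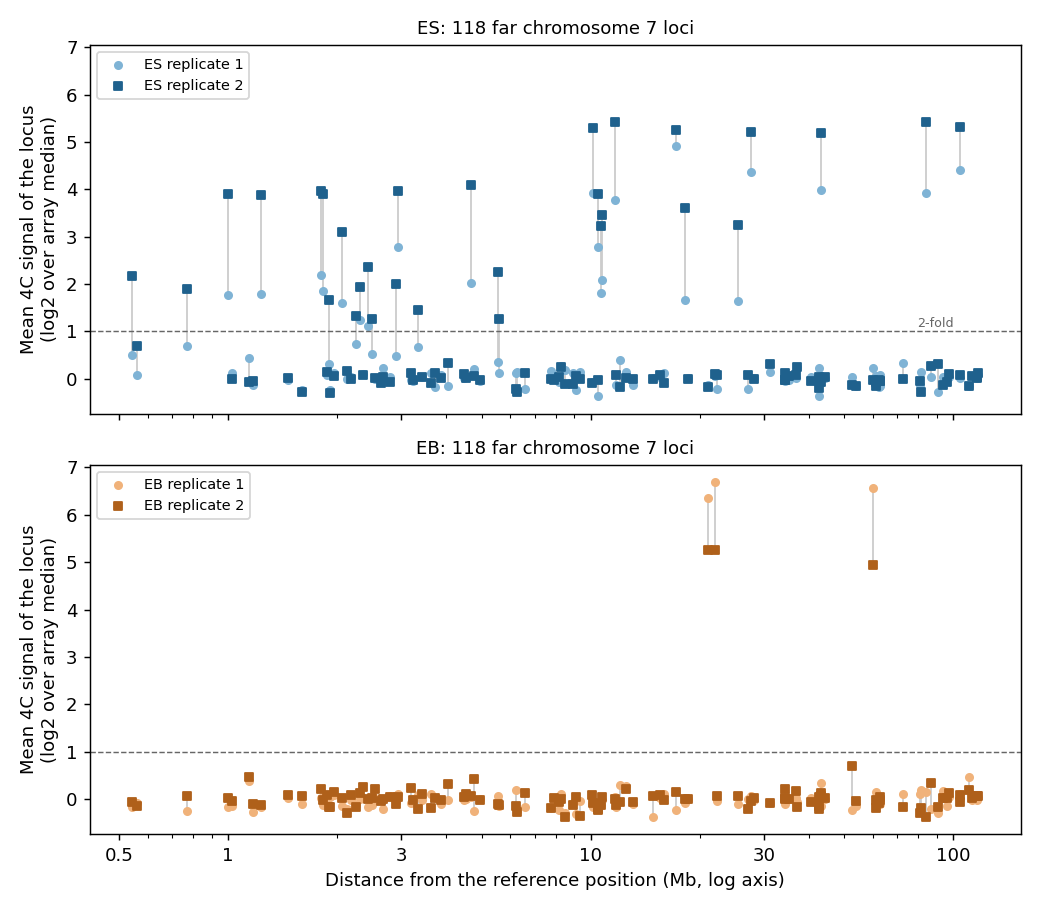
Mean 4C signal of each of the 118 far chromosome 7 loci (log2 over the array's tiling median) against distance from the reference position in Mb on a log axis, with ES above and EB below and a grey line joining the replicates of a locus; the dashed line is the 2-fold level. In ES, locus means above the line occur from 0.545 Mb to 104 Mb with many loci at 0 between them, while in EB 3 loci stand far above the line and the others lie under 0.70.

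Of the 23 ES loci, 21 held unlabelled probes alone. Their locus means on ES replicate 1 ran from 1.11 through a median of 2.09 to 4.91, and on ES replicate 2 from 1.94 through 3.91 to 5.43. The same loci on EB replicate 1 ran from -0.23 through -0.056 to 0.35, and on EB replicate 2 from -0.39 through 0.013 to 0.22. Thus the EB values of these loci sat near the array median. The lack of overlap with ES is no separate result, since these loci were picked for signal on both ES arrays and neither EB array. The bounds that follow describe the same picked loci. Since the EB value is near background, the ES over EB difference is a bound: with EB set at 1 log2 unit it was at least 1.50-fold to at least 17.0-fold, with a median of at least 4.15-fold.

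The 3 loci with signal in EB were chr7:115998055-115998802 with 5 probes and the single probes at 77109903 and 115026819. The 5-probe locus reached 6.36 and 5.27 in EB, while ES gave -0.13 and -0.17. At 115026819 the EB values were 6.70 and 5.26 beside 0.065 and 0.10 in ES. At 77109903 they were 6.57 and 4.94 beside 0.22 and -0.026. The bounds for EB over ES were at least 28.1-fold for the 5-probe locus and at least 31.5-fold at 115026819. Both single-probe loci were named after their values were seen.

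ES replicates ranked the loci with signal alike but differed in level. ES replicate 2 lay above ES replicate 1 at all 23 ES loci. At the 9 loci with signal on replicate 2 alone it did so too, which follows from how they were picked. Across the 118 loci, which share the same arrays, Pearson's r between the ES replicates was 0.947 and Spearman's rho 0.568, and within the 23 ES loci they were 0.915 and 0.906. The 9 loci of replicate 2 had means from 1.26 to 2.25 there and from 0.13 to 0.73 on replicate 1, against -0.25 to 0.088 on the EB arrays. Replicate 1 values of the 73 unlabelled loci with no signal ran from -0.37 to 0.43. All 9 lay within 5.57 Mb of the reference position.

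**Figure D2:**
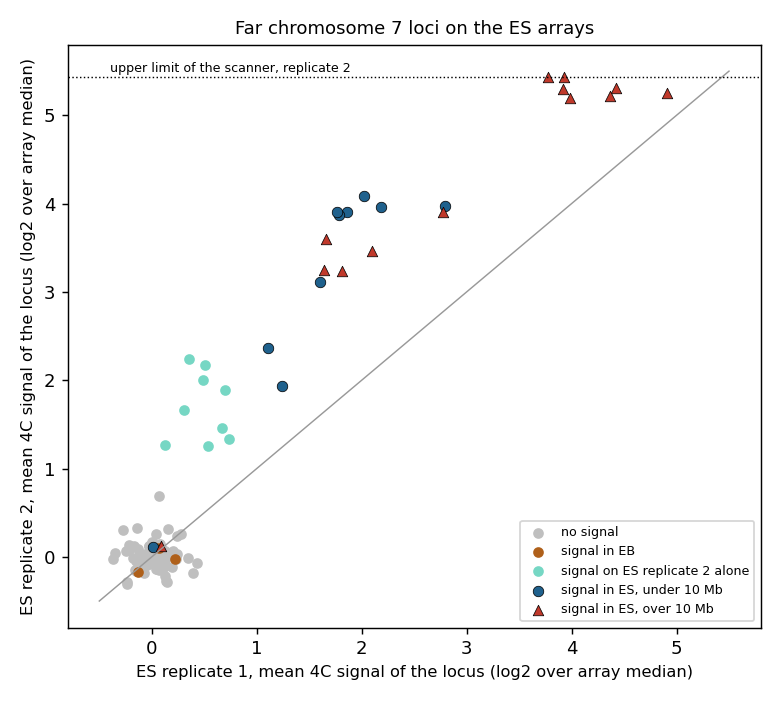
Mean 4C signal of each locus on ES replicate 1 (x axis) and ES replicate 2 (y axis), in log2 units over the array median, coloured by where the locus had signal; the grey line is equality and the dotted line the scanner's upper limit on replicate 2 (5.43). Loci with signal in ES lie above equality, and 2 beyond 10 Mb have means at the limit; the 2 ES points near 0 are 40 kb regions in which a short run is averaged with many silent probes.

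Differences between the cell states were tested locus by locus. Of the 118 loci, 57 had at least 3 probes and entered one limma fit with all other such loci and windows of the array, 3553 features in all. At a Benjamini-Hochberg adjusted p of 0.05, 2 far chromosome 7 loci were lower in EB and 1 was higher. Among all features 0.929% were called lower and 0.535% higher, but 3221 of these features were windows of large regions. Of the 275 loci tested on other chromosomes, 9 were called lower in EB and 18 higher. Lower calls were thus about as frequent there as on far chromosome 7, and higher calls more frequent. Groups that did not overlap were more common than calls: both EB arrays lay below both ES arrays at 18 of the 57 loci, against 15.1% of all features, and above them at 6, against 8.25%. The median EB minus ES difference was -0.014 over the 57 loci and -0.0040 over all features; 41 of the 57 loci had no signal on any array.

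The first locus lower in EB was chr7:109352070-109353470, with 8 probes, 27.6 Mb from the reference position. Its 4C signal in ES was 4.37 and 5.21, against 0.073 and -0.043 for EB. Every probe of it reached 2-fold on both ES arrays, with the lowest at 1.80, and none did in EB. EB minus ES was -4.78 with an SE of 0.30 (limma adjusted p = 0.0146), and at least 13.8-fold as a bound. The second was chr7:32865625-32866025, with 3 probes, 104 Mb away. It had 4.42 and 5.31 in ES against 0.11 and -0.052 in EB, a difference of -4.84 with an SE of 0.32 (limma adjusted p = 0.0160), at least 14.6-fold. All probes of both loci were within 2-fold of the scanner's limit on ES replicate 2. The spread between the ES arrays, on which these calls rest in part, may therefore be compressed too, which was not tested.

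The locus higher in EB was chr7:115998055-115998802, whose values are given above. EB minus ES was 5.96 with an SE of 0.38 (limma adjusted p = 0.0153), and within replicates 1 and 2 it was 6.49 and 5.43. On EB replicate 2 all of its probes, and on replicate 1 80% of them, were near the limit. The calls changed with the fit. With the replicate number as a block, both loci lower in EB missed the threshold (limma adjusted p = 0.0609 and 0.0688). The EB locus stayed just under it (0.0484). Without EB replicate 1 or EB replicate 2, EB minus ES was -4.84 or -4.72 at chr7:109352070-109353470 and -4.92 or -4.76 at chr7:32865625-32866025. At the EB locus it was 5.42 or 6.51. In these fits a locus's own spread comes from the ES pair alone. The SD of that pair was 0.60 and 0.63 at the loci lower in EB and 0.025 at the EB locus. With loci of 1 or 2 probes admitted, all 3 called loci missed the threshold (limma adjusted p = 0.112 to 0.118). The only far chromosome 7 locus called there was the single probe at 119812252 (0.0478). Its ES signals were 4.91 and 5.26 and its EB signals -0.23 and 0.16.

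Another 10 loci had unadjusted p under 0.05 but were not called, and each of them had both ES arrays above both EB arrays. At chr7:126501071-126501471 (4 probes) the ES signals were 2.78 and 3.91, against EB signals of -0.056 and -0.20 (limma adjusted p = 0.0576). At chr7:134044457-134045451 (5 probes) it was 2.79 and 3.97 against 0.11 and 0.053 (limma adjusted p = 0.0715). For the other 8 the adjusted p ran from 0.151 to 0.576. Leaving out either ES array, so that the lone array is assumed to vary like the EB pair, gave 14 called loci, 13 of them lower in EB.

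Several of these uncalled loci were long runs close to the bait. chr7:135165465-135166965, 1.83 Mb away, had 12 probes over 1500 bp. Its mean reached 1.86 and 3.91 in ES, with -0.12 and -0.020 for EB (limma adjusted p = 0.427). On ES replicate 2 all 12 probes reached 2-fold, and on replicate 1 11 did, the exception standing at 0.53. These probes are scattered over the array, from column 38 to 727 of 768, and from row 87 to 955 of 1024. At chr7:132310617-132311217, 4.68 Mb away, all 7 probes reached 2-fold on both ES arrays, with means of 2.03 and 4.08, against 0.047 and 0.072 in EB (limma adjusted p = 0.418). chr7:135763969-135764969 with 7 probes had means of 1.78 and 3.87 against -0.17 and -0.12 (limma adjusted p = 0.440). chr7:139059160-139060460 with 8 probes, 2.06 Mb toward the telomere, had 1.60 and 3.11 against -0.14 and 0.020 (limma adjusted p = 0.328).

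Some loci held probes with signal beside probes at background, with an unprobed gap between them. In chr7:139425860-139433485 the first 8 of 13 probes reached 2-fold on both ES arrays, from 1.08 to 3.36 on replicate 1 and up to 4.78 on replicate 2. The 5 probes from 139432227 on lay between -0.35 and 0.48 on these arrays. In chr7:134044457-134045451 the first probe was at 0.0055 and -0.023 in ES, and the 4 from 134045151 on ran from 2.57 to 5.34. A locus joined across gaps can thus hold a stretch with signal beside a silent one, and its mean covers both.

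**Figure D3:**
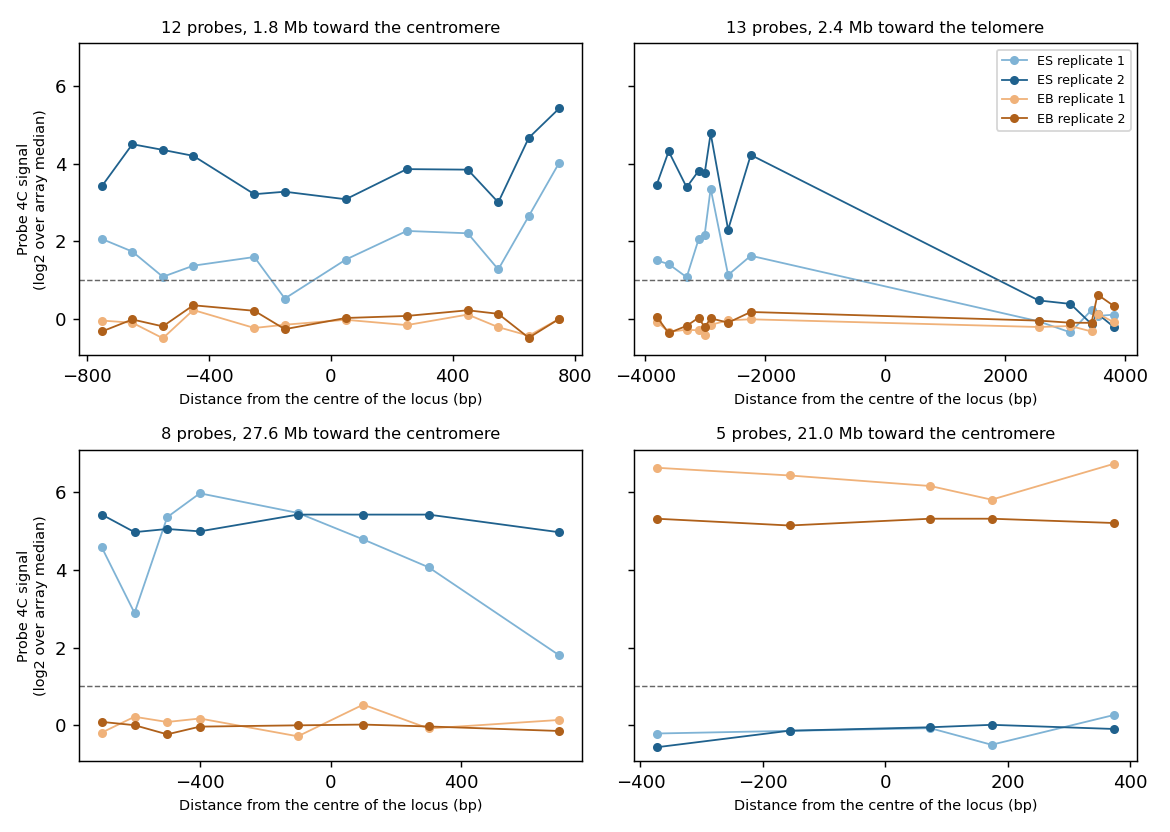
4C signal of each probe (log2 over the array median) against its distance in bp from the centre of the locus, for 3 loci with signal in ES and 1 with signal in EB, with a line per array and the 2-fold level dashed. The loci at 1.83 and 27.6 Mb are raised over their whole length on both ES arrays except for 1 probe at 0.53 on replicate 1, the locus at 2.43 Mb is raised over its first 8 probes, and the 5-probe locus at 21.0 Mb is raised on both EB arrays.

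The 40 kb regions were almost wholly silent. The 10 loci with more than 100 probes had means from -0.021 to 0.14 on the 4 arrays, and 2 of them held a run in ES. In chr7:132513406-132553870 (554 probes, 4.46 Mb away) ES replicate 2 had 7 probes in a run from 132518517 to 132518725 and 8 from 132519458 to 132519718. On ES replicate 1 the second stretch kept a run of 3, from 132519562 to 132519658. Both stretches contained unlabelled probes, 4 in all, each at 2.53 to 3.51 on replicate 2, while the ES signals of probes from 132519955 to 132520215 lay between -0.61 and 0.12. In chr7:19829465-19869218 (344 probes, 117 Mb away) 5 probes on replicate 1 and 6 on replicate 2 formed a run from 19860354, which peaked at 5.43 and 4.75 in the probe at 19860562. No 40 kb region held a run on an EB array. The regions with the most probes, chr7:32639438-32679719 (637 probes) and chr7:118377270-118416927 (628 probes), had no run and means from -0.0039 to 0.092.

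Of the unlabelled probes, 3 fell inside large tiled regions, where tiled probes lie close by. The one with signal, at 52658792 and 84.3 Mb away, was named after its values were seen, with ES signals of 3.92 and 5.43 beside EB signals of 0.15 and -0.39. The tiled probe 44 bp before it had 3.34 and 5.24 in ES, and the one 8 bp after it 3.38 and 5.26. The tiled probes 96 bp before and 60 bp after were at background on all 4 arrays, at -0.41 to 0.12. Signal here thus covered 3 probe starts within 52 bp. The other probes of this kind, at 55308809 and 56081753, lay between -0.29 and 0.19 on the 4 arrays, and the closest tiled probes between -0.47 and 0.47.

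Signal in ES did not fall steadily with distance. Over the loci with at least 3 probes its rank correlation with distance was weakly negative on both ES arrays (Spearman's rho -0.235 and -0.254). Among the 30 loci under 3 Mb, 8 (26.7%) were ES loci, and 6 more had signal on ES replicate 2 alone. From 3 to 10 Mb 2 of 26 (7.69%) were, from 10 to 30 Mb 9 of 24 (37.5%), and beyond 30 Mb 4 of 38 (10.5%). The 10 to 30 Mb share rests in part on one neighbourhood of 638 kb, in which 4 of 6 loci were ES loci: those starting at 126245589, 126295061, 126501071 and 126822259, of which 126501071 alone falls under the naming rule and the others were named after their values were seen. Without that neighbourhood it was 27.8% (5 of 18). The share of unlabelled probes at 2-fold or more was also highest from 10 to 30 Mb but lowest beyond 30 Mb: on ES replicate 1 it was 29.4%, 11.2%, 43.8% and 7.89% from the nearest bin to the farthest, and on ES replicate 2 it was 43.4%, 16.3%, 45.8% and 6.58%. In EB it was 0% under 10 Mb, then 12.5% and 1.32% on each array. These shares count the probes of a locus separately, so they are no separate result from the counts of loci. Of the 48 unlabelled probes from 10 to 30 Mb, chr7:109352070-109353470 held 8, all positive on both ES arrays. chr7:115998055-115998802 held 5, all positive on both EB arrays. Over the 57 loci with at least 3 probes, Spearman's rho of mean signal and distance was -0.242 in ES and 0.102 in EB, as a description of loci that share 4 arrays.

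Levels of the ES loci are given by distance as a description, since they come from different probes, many of them near the scanner's limit, at loci picked for their ES signal. The 9 unlabelled ES loci within 10 Mb had a median of 1.78 on ES replicate 1 (from 1.11 to 2.79) and 3.91 on replicate 2 (1.94 to 4.08). The 12 beyond 10 Mb had medians of 3.85 (1.64 to 4.91) and 5.20 (3.24 to 5.43). The split at 10 Mb was made after seeing the values. For comparison, the 65 loci with signal in ES alone on other chromosomes had medians of 3.20 and 5.12. A probe within 2-fold of the limit on replicate 2 was present in 8 of the 9 near loci and 8 of the 12 far ones.

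Nearest to the reference position, the loci themselves were mixed. Toward the centromere, 136450416 had 0.51 and 2.17 in ES, 136434132 had 0.072 and 0.68, and 136227211 had 0.69 and 1.89, each a single probe with EB values from -0.25 to 0.065. Toward the telomere, 138797557 had 2.18 and 3.96, 138889929 had 0.31 and 1.66, and 138904264 had -0.24 and -0.31, with EB values from -0.17 to 0.22. So of these 6 single-probe loci, 1 had signal on both ES arrays, 3 on replicate 2 alone and 2 on neither. Under 3 Mb each side held 15 loci, of which 4 were ES loci, 3 had signal on ES replicate 2 alone and 8 had none.

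The same kinds of probe on other chromosomes, 2267 loci with 38588 probes, served as the trans comparison. Among loci of unlabelled probes, 19.8% on far chromosome 7 (21 of 106) had signal in ES alone, against 2.99% in trans (65 of 2177). For EB alone the shares were 2.83% (3 of 106) and 2.11% (46 of 2177). ES shares were larger at larger loci in both, and most trans loci were single probes. With 1 probe the ES shares were 15.9% of 44 and 1.62% of 1857, with 2 probes 17.6% of 17 and 5.22% of 134, and with 3 or more 24.4% of 45 and 15.1% of 186. Loci of 3 or more probes with signal in EB alone made up 2.22% (1 of 45) in cis and 9.14% (17 of 186) in trans.

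**Figure D4:**
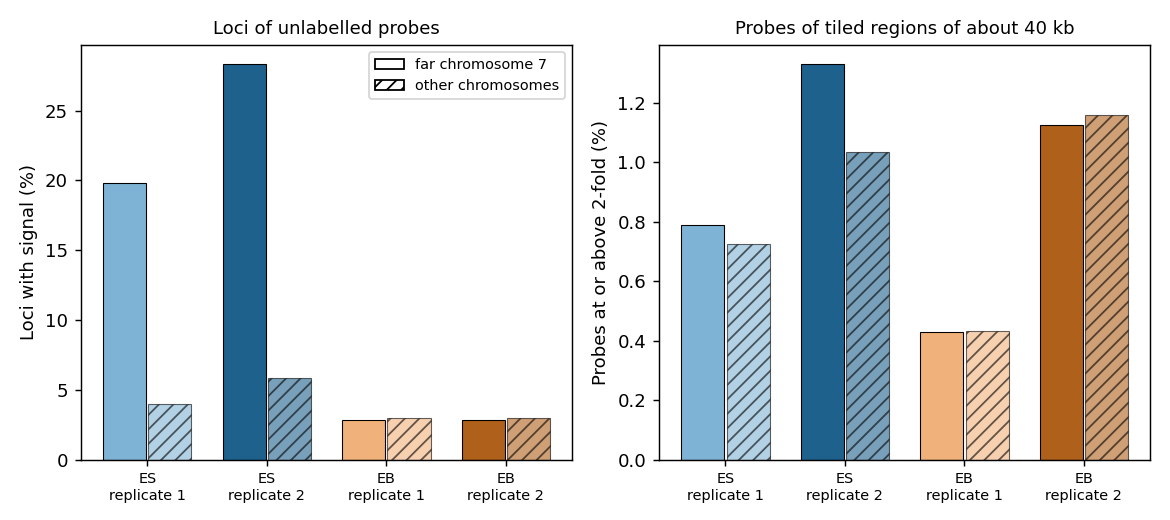
Share of loci of unlabelled probes with signal (left) and of probes of small tiled regions at or above 2-fold (right), in percent, on each array, for far chromosome 7 (plain bars) and other chromosomes (hatched bars); each bar is 1 array, so there are no error bars. On the left the ES bars are 19.8% and 28.3% against 4.00% and 5.88%, while on the EB arrays both bars are close to 3%; on the right the 2 bars of an array are of like height.

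Counted over probes, 2.39% and 3.42% of far chromosome 7 probes reached 2-fold in ES, against 0.541% and 1.19% in EB. The EB minus ES difference was -2.04 percentage points (within replicates 1 and 2, -1.85 and -2.23), and the exact two-sided permutation test gave p = 0.33, the smallest that 2 arrays against 2 can give. Unlabelled probes carried this difference, with 21.9% and 28.8% in ES and 1.92% on each EB array. In the small regions the shares were 0.789% and 1.33% for ES and 0.428% and 1.13% for EB, which overlap. Far chromosome 7 minus trans was 1.14 and 1.53 percentage points in ES and -0.283 and -0.316 in EB. Its mean over the 4 arrays was 0.519, and the exact two-sided sign-flip permutation test, which cannot reach 0.05 with 4 arrays, gave p = 0.50.

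Replicates shared positive probes far more in the unlabelled loci than in the 40 kb regions. Of the 365 unlabelled probes, 77 (21.1%) were positive in both ES replicates and 7 in both EB replicates, but 0 on both replicate 1 arrays and 0 on both replicate 2 arrays. In the small regions 18 of 4437 probes (0.406%) reached 2-fold on both ES arrays, 7 (0.158%) on both EB arrays, 8 (0.180%) on both replicate 1 arrays and 19 (0.428%) on both replicate 2 arrays. The overlap by replicate number in those regions was therefore as large as the overlap by cell state, and the part of the batch in it was not tested.

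The genomic DNA channel was compared in the same way. In the limma fit on that channel 0 of the 57 loci were called, and 3 had an unadjusted p under 0.05 (0 and 17 among all 3553 features). The 77 probes positive on both ES arrays had median ES inputs of 0.35 and 0.076 and median EB inputs of 0.22 and -0.042, in log2 units over the array median. For the other 288 unlabelled probes the ES medians were 0.040 and 0.086, and those of EB 0.093 and 0.064. Both ES inputs lay above both EB inputs at 17 of the 77 (22.1%) and at 28 of the 288 (9.72%). At 5 of the 77 and 1 of the 288 the mean ES input was at least 1 log2 unit higher, and the part of this in the 4C difference was not tested. The clearest case, named after its values were seen, was the probe at 139313008, with ES inputs of 3.98 and 2.09 and EB inputs of -0.12 and -0.16 beside 4C signals of 4.64 and 5.43 in ES. Its locus, which starts at 139308783, was counted as an ES locus because of this probe. The other probes of that locus ran from 0.022 to 1.70 on ES replicate 1. This locus also gave the lowest ES replicate 2 mean (1.94) and the lowest fold bound (1.50) of the ES loci of unlabelled probes. In the opposite direction, the probe at 119812252 had an input of 3.26 on EB replicate 1 and from 0.65 to 1.01 on the other arrays, with no 4C signal in EB.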

How the data were processed

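The deposited intensity values (Cy5 and Cy3, one file per channel and array) were read by the authors with NimbleScan, version 2.3.78 for both replicate 1 arrays and 2.3.18 for both replicate 2 arrays, per the file headers. No background correction or normalization is recorded there. Here log2 Cy5 intensity was centred on each array's tiling median. Random control probes were left out. Locus values are means over probes. Loci with at least 3 probes, and 10 kb windows with at least 5 probes in larger regions, entered one limma fit (limma 3.58.1, R 4.3.3) with group means, adjusted by Benjamini-Hochberg at 0.05, and the fit was tested on simulated data. Single values were compared with exact permutation tests over arrays. The number of arrays limits the precision. The SEs and p-values of limma are moderated: each feature's spread between arrays is drawn toward a value estimated from all 3553 features. Of those features, 3221 were windows of large regions. The p-values therefore do not rest on a locus's own spread between 2 arrays of pooled samples alone.

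A fold bound sets each dimmer array at the higher of 1 log2 unit and its own value. Loci named are those called, those with a run on both arrays of a group, the 3 nearest on each side and the 3 with the most probes, with others marked where named. Members, comparisons and lists were chosen with earlier results of these data known. Replicate numbers were checked for pairing over features (r = 0.035), and the main fit did not pair the arrays by them. This r covers all features together, so it does not test a batch effect at single loci, where the replicate block changed calls. Alternatives were normexp correction (offset 50), quantile normalization, the log2 ratio of 4C to input, medians, other probe minimums, gaps and thresholds, leaving out the dimmest 20% of input probes, a replicate block, and leaving out each array. Figures used Python 3.11.15 and matplotlib 3.10.9.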

Additional observations from a re-analysis of the deposited data

Results flagged for a closer look

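In the main processing, the gap between far chromosome 7 and the other chromosomes pointed in opposite directions in the cell states, on both arrays of each. These opposite directions did not hold in every alternative. With the 4C to input ratio the gap was negative on both arrays of each state, ES included, as given below. Over all probes of the same kinds, the share at or above 2-fold on far chromosome 7 minus that elsewhere had a mean of 1.34 percentage points in ES and -0.299 in EB. Over unlabelled probes alone it was 16.1 in ES and -3.32 in EB. The difference of these gaps between the states over all probes, EB minus ES, was -1.64 percentage points (exact two-sided permutation p = 0.33, the smallest that 2 arrays against 2 allow). The EB side depends on what is counted: over loci of unlabelled probes the gap was -0.156 percentage points on each EB array, with 15.8 and 22.4 on the ES arrays, a count added after seeing the data.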

How the results depend on the processing

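The number of far chromosome 7 loci called (3) became 5 with normexp and 10 with quantile normalization, 1 with loci of a single probe admitted, 1 with a replicate block, and from 1 to 14 when an array was left out; the cause was not tested. A fit without 1 array takes each locus's own spread from the other group's pair alone, so its count is not comparable with the rest. The number called was 4 with the 4C to input ratio, 4 without dim input probes, 3 with medians or other gaps, and 2 with at least 5 probes. The far chromosome 7 minus trans share, 0.519 as a mean over the 4 arrays, reversed to -4.46 percentage points with the 4C to input ratio. The exact sign-flip permutation test there gave the smallest p that 4 arrays allow. That p requires the same sign on all 4 arrays, so with the ratio both ES arrays also had a negative gap. The cause was not tested. This mean share stayed above 0 in the other alternatives, including 9.48 when counted over loci. The share of far chromosome 7 probes at 2-fold stayed lower on average in EB in every alternative run, and the replicate block left it at -2.04. The groups overlapped with normexp and the ratio (exact permutation p = 1 for both), and at a threshold of 0.5 and for small region probes (0.667 for both). The rho of ES signal with distance, -0.242, moved to -0.275 with medians, -0.112 with the share of probes and -0.283 with the ratio, and the cause was not tested. Counting by locus mean alone, 21 loci had signal in ES alone, and a threshold of 2 log2 units left 12. This count was 27 with normexp, 20 with quantile normalization and 26 at a threshold of 0.5, and the EB count was 3 in each, alternatives chosen after seeing the data. Saturation near the upper limit hides differences among the strongest loci, and no probe there has a measured fold.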
